A study of Rattus norvegicus with 6 samples.

Results

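The STAT transcription factors Stat2, Stat3, Stat4, Stat5a, Stat5b and Stat6 and the feedback inhibitors Socs1, Socs2 and Socs3 were followed in the lumbar spinal cord of rats with bone cancer pain (BCP). The genes were taken by name from the deposited gene table, in which 8 of the 9 names had a row among 30957 listed genes. All 8 rows were tested among 14908 genes. No row carried the name Stat4, which was not analysed here. RNA-seq of ribosome-depleted, strand-specific libraries was made from the ipsilateral side of the lumbar enlargement, freed of meninges, on day 14. BCP rats (n = 3) had received living Walker 256 cells, a rat mammary carcinoma line, in the marrow cavity of the left tibia. Sham rats (n = 3) had received heat-killed cells of the same line, so both groups carried tumor cell material and a bone injection. The rats were female Wistar rats without a transgene, and the methods call them adult. The tumor grew in the tibia, and the sequenced tissue was the spinal cord. The labels do not say that each library came from a separate animal, and p-values measure the spread between these libraries, which may be technical.

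Cytokine receptors without a kinase of their own use JAK kinases, which phosphorylate STAT proteins. Phosphorylated STATs pair and move to the nucleus, where they act on target genes, and SOCS genes are among those targets. SOCS proteins bind receptors or JAKs and damp the signal, which makes them an induced negative feedback. In the spinal cord this route is known from reactive astrocytes, microglia and infiltrating lymphocytes. RNA levels do not report phosphorylation.

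Counts on genes ranged from 11779485 to 15004290 per library, and values below are raw counts, CPM (counts scaled to a common library size with TMM factors) or the deposited FPKM. Microglial genes rose in 10 of 15 tested, and their summed CPM was 431 to 538 in sham libraries and 1185 to 1446 in BCP libraries. The microglial marker Siglech had no count in any library. Genes of T cells had a summed CPM of 6.28 to 6.98 in sham and 53.8 to 62.3 in BCP libraries, and Cd3d, Cd5 and Cd8b had no count in sham libraries. Those of natural killer and cytotoxic cells had a summed CPM of 0.473 to 1.05 in sham and 37.0 to 59.5 in BCP libraries. No count of tested genes is given for these lists, since most of their genes reached the test only through BCP libraries. The sum for monocytes and macrophages was 47.5 to 55.4 in sham and 509 to 751 in BCP libraries, but only Lyz2 and Plac8 rose, 2 of 5 tested, and the median log2 fold change was 0.17. Ccr2 had no count in sham libraries and 1 in each BCP library. Red blood cell genes rose in 4 of 4, with sums of 244 to 258 CPM in sham and 465 to 675 CPM in BCP libraries. Oligodendrocyte genes fell in 7 of 7, neuronal genes in 6 of 11 and genes of the dorsal root ganglion and nerve root in 3 of 6 tested. Of 9 astrocyte genes, 4 fell and 1 rose, with a median log2 fold change of -0.005. The one that rose was Gfap, also on the list of STAT3 targets below. The summed CPM of astrocyte genes was 8361 to 8646 in sham and 9255 to 11405 in BCP libraries. Of all tested genes, 15.8% rose and 12.1% fell. The part of these cells in the results below was not tested. In bulk tissue, fewer cells of a type and less RNA per cell cannot be told apart, nor can more cells and more RNA per cell.

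Sequences around the annotated starts of these genes were read from RefSeq promoter windows of the GRCr8 assembly, 250 bases before to 50 after. Of the 9 names, 8 had a window. Socs2 had none. Each window was searched on both strands for TTCNNNGAA and TTCNNNNGAA, palindromes that STAT dimers bind, and for GAAANNGAAA (TTTCNNTTTC on the other strand), the core of the interferon-stimulated element that STAT2 with IRF9 binds. Socs1 is shown because it alone of the 8 windows held matches, and Stat6 and Socs3 because they, like Socs1, passed both thresholds below. Capitals mark the matches. Socs1 lies at chr10:5389324-5389623 and Stat6 at chr7:65365255-65365554, both on the plus strand, and Socs3 at chr10:103694719-103695018 on the minus strand.
Socs1: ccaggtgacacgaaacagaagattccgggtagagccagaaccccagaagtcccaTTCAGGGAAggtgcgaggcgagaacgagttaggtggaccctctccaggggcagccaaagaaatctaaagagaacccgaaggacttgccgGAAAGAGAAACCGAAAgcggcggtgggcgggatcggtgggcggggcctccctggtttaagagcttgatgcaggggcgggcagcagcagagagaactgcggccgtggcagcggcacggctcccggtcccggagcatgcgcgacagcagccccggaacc
Stat6: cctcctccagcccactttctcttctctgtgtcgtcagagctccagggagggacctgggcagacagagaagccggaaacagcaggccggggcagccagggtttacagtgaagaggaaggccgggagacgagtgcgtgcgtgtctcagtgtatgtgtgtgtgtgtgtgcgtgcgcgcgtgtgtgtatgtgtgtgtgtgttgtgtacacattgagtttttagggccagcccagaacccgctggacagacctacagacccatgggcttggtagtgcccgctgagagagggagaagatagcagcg
Socs3: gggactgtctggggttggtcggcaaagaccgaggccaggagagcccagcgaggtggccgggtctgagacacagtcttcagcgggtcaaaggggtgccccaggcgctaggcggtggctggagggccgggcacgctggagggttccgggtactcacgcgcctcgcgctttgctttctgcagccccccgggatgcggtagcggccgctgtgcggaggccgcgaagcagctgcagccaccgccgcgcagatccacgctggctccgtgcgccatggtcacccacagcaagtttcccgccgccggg
In Socs1, TTCAGGGAA spans bases -196 to -188 from the start. GAAAGAGAAA spans -107 to -98 and GAAACCGAAA -101 to -92, so the second and the first element share bases. Over all 33469 windows, 8.87% held TTCNNNGAA, 7.28% TTCNNNNGAA and 3.92% GAAANNGAAA. A match is a description of letters and not of binding, and the windows of the other genes draw no statement about their factors. Whether an annotated start is that of the first exon was not tested, for Socs3 among them. A window without a match says nothing of sequence outside it.

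Stat3, Stat6, Socs1 and Socs3 were higher in BCP, whereas Stat5a, Stat5b and Socs2 did not pass the test. With edgeR's quasi-likelihood test and Benjamini-Hochberg adjustment over all genes, 4 of the 8 rows passed an adjusted p of 0.05, all higher in BCP, beside 15.8% of all tested genes that were higher and 12.1% that were lower. None was lower, also at an unadjusted p under 0.05 and by DESeq2 (0 in each). An adjusted p under 0.05 with more than a 2-fold change was reached by Stat6, Socs1 and Socs3, 3 of 8, beside 6.35% of all genes higher. The median log2 fold change of the 8 rows was 0.97, and that of all genes -0.01. Socs1 and Socs3 are counted here although they reached the test through BCP libraries (below). With at least 10 counts in every library, which leaves both out, the median was 0.46. Every BCP library lay above every sham library in 5 of the 8, which holds for 21.7% of all genes, and in 0 of the 8 every BCP library lay below, which holds for 19.8%.

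**Figure D1:**
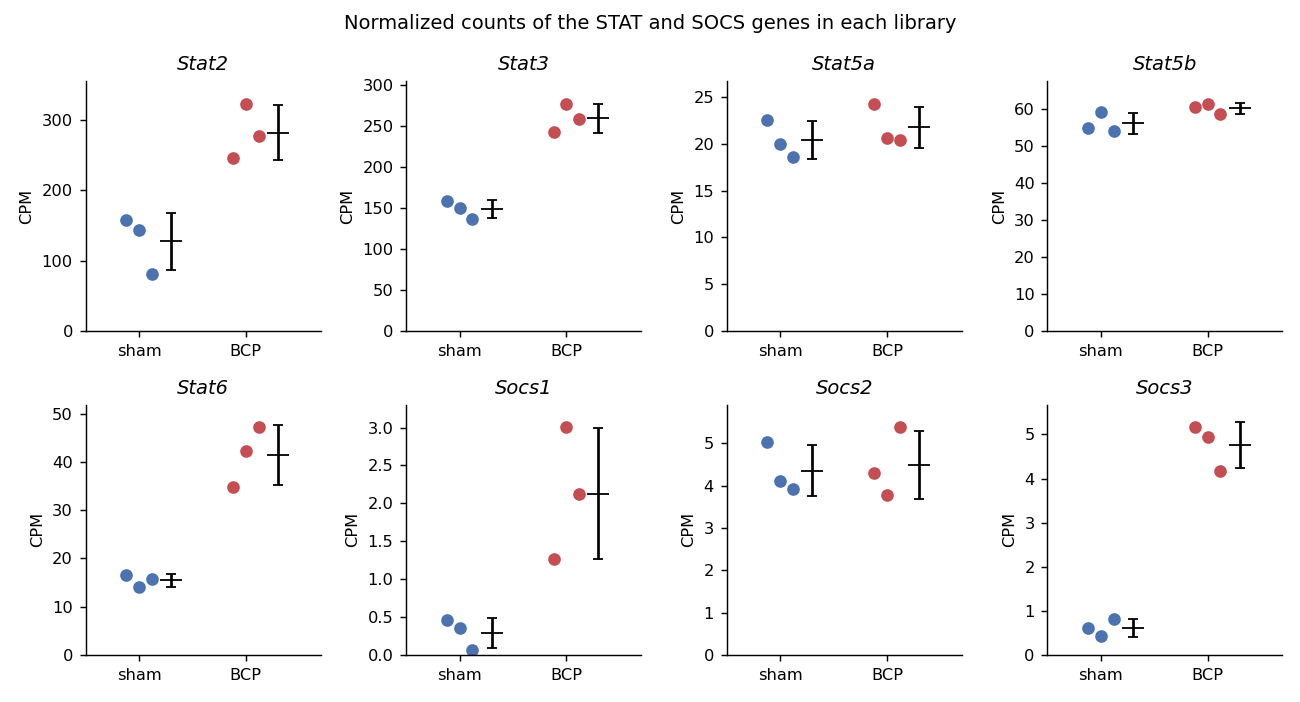
Normalized counts (CPM, each axis from 0) of the 8 genes in each library, with sham in blue and BCP in red; black bars are the group mean ± SD of 3 libraries. The groups separate for Stat2, Stat3, Stat6, Socs1 and Socs3, sham library 3 lies lowest for Stat2, and the groups overlap for Stat5a, Stat5b and Socs2.

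Stat3, the factor used by the gp130 cytokines such as IL-6, lies at 10:88790408-88842233 (Rnor_6.0). It had 2084, 2147 and 2020 counts in sham libraries and 2859, 3871 and 3416 in BCP libraries, or 159, 150 and 136 CPM against 242, 277 and 259 CPM. Sham and BCP libraries did not overlap. Stat3 rose from 148 ± 11.3 to 259 ± 17.5 CPM (SD, n = 3 each), a log2 fold change of 0.80 (SE 0.06, adjusted p = 2.37e-08) or 1.75-fold with a 95% interval of 1.60 to 1.91. This was the most narrowly measured change among the 8 genes, and it stayed under 2-fold over its whole interval.

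Stat6, which signals for IL-4 and IL-13, lies at 7:70946228-70964484. Its counts were 217, 201 and 233 in sham and 411, 592 and 623 in BCP libraries, and its CPM 16.5, 14.0 and 15.7 against 34.8, 42.3 and 47.2. The lowest BCP library had more than the highest sham library. Stat6 rose by a log2 fold change of 1.43 (SE 0.11, adjusted p = 1.29e-08), or 2.69-fold with a 95% interval of 2.29 to 3.15. Its span overlaps that of Nab2, a corepressor of early growth response factors, by 2910 bases. Nab2 had 108, 112 and 126 counts in sham and 104, 183 and 164 in BCP libraries (log2 fold change 0.49, SE 0.16, adjusted p = 0.0246). The use of strand in counting is not given in the sources used here, and reads of the shared bases could be assigned to either gene.

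Stat2, the partner of IRF9 in type I interferon signaling, lies at 7:2691369-2707741. It had 2073, 2055 and 1208 counts in sham and 2902, 4516 and 3663 in BCP libraries, or 158, 144 and 81.6 CPM against 245, 323 and 277 CPM. The groups did not overlap, but sham library 3 was far below the other sham libraries. The log2 fold change was 1.14 (SE 0.30, 95% interval 0.32 to 1.96), or 2.21-fold, with an adjusted p of 0.0597 in edgeR, past neither threshold set. Stat2 passed without sham library 3, at a smaller log2 fold change of 0.90 (adjusted p = 0.00652), and with DESeq2 on all libraries at 1.15 (adjusted p = 0.000587). Over the alternatives its adjusted p ranged from 0.000587 to 0.168.

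Stat5a and Stat5b, close relatives that signal for the common gamma chain cytokines, growth hormone and prolactin, showed small differences. Stat5a (10:88764732-88789057) had 22.6, 20.0 and 18.6 CPM in sham and 24.3, 20.6 and 20.4 CPM in BCP libraries. Stat5b (10:88686207-88754829) had 54.9, 59.3 and 54.1 CPM in sham and 60.5, 61.4 and 58.6 CPM in BCP libraries. Both genes overlapped between the groups in CPM. In the deposited FPKM, Stat5b did not overlap, with 16.5 to 18.1 in sham and 18.5 to 19.3 in BCP libraries. The log2 fold change of Stat5a was 0.09 (SE 0.11, adjusted p = 0.571), and its 95% interval of 0.916- to 1.24-fold ends below the interval of Stat6. That of Stat5b was 0.10 (SE 0.07, adjusted p = 0.283), with an interval of 0.976- to 1.18-fold. The genes share long stretches of sequence and counting could have split reads between them, so their counts were also added, which gave 0.10 (adjusted p = 0.233).

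Socs3, the inhibitor that binds gp130 and is itself induced through STAT3, lies at 10:106975178-106976040, a single block of 863 bases. It had 8, 6 and 12 counts in sham and 61, 69 and 55 in BCP libraries, or 0.610, 0.419 and 0.811 CPM against 5.16, 4.93 and 4.16 CPM. The groups were far apart. Socs3 rose by a log2 fold change of 2.93 (SE 0.30, adjusted p = 2.94e-07), or 7.62-fold with a 95% interval of 4.93 to 11.8.

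Socs1, which inhibits JAK kinases directly and is induced by interferons, lies at 10:4957326-4958461, a block of 1136 bases. Its counts were 6, 5 and 1 in sham and 15, 42 and 28 in BCP libraries, and its CPM 0.458, 0.349 and 0.0676 against 1.27, 3.0 and 2.12. The groups did not overlap, with sham library 3 lowest again. Socs1 rose by a log2 fold change of 2.88 (SE 0.49, adjusted p = 0.000161), or 7.36-fold with a wide 95% interval of 3.61 to 15.0. Its log2 fold change was 2.40 (adjusted p = 0.00104) without sham library 3. Socs1 had fewer than 10 counts in each sham library and Socs3 in 2 of 3, so both reached the test through BCP libraries. With no filter on low counts their adjusted p was 3.22e-05 and 8.02e-09.

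Socs2, which feeds back on growth hormone signaling, lies at 7:36495480-36499784. It had 66, 59 and 58 counts in sham and 51, 53 and 71 in BCP libraries, or 5.03, 4.12 and 3.92 CPM against 4.31, 3.79 and 5.38 CPM. The groups overlapped. Its log2 fold change was 0.05 (SE 0.21, adjusted p = 0.900), with a 95% interval of 0.761- to 1.40-fold, and the sign turned when sham library 3 or BCP library 3 was left out.

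**Figure D2:**
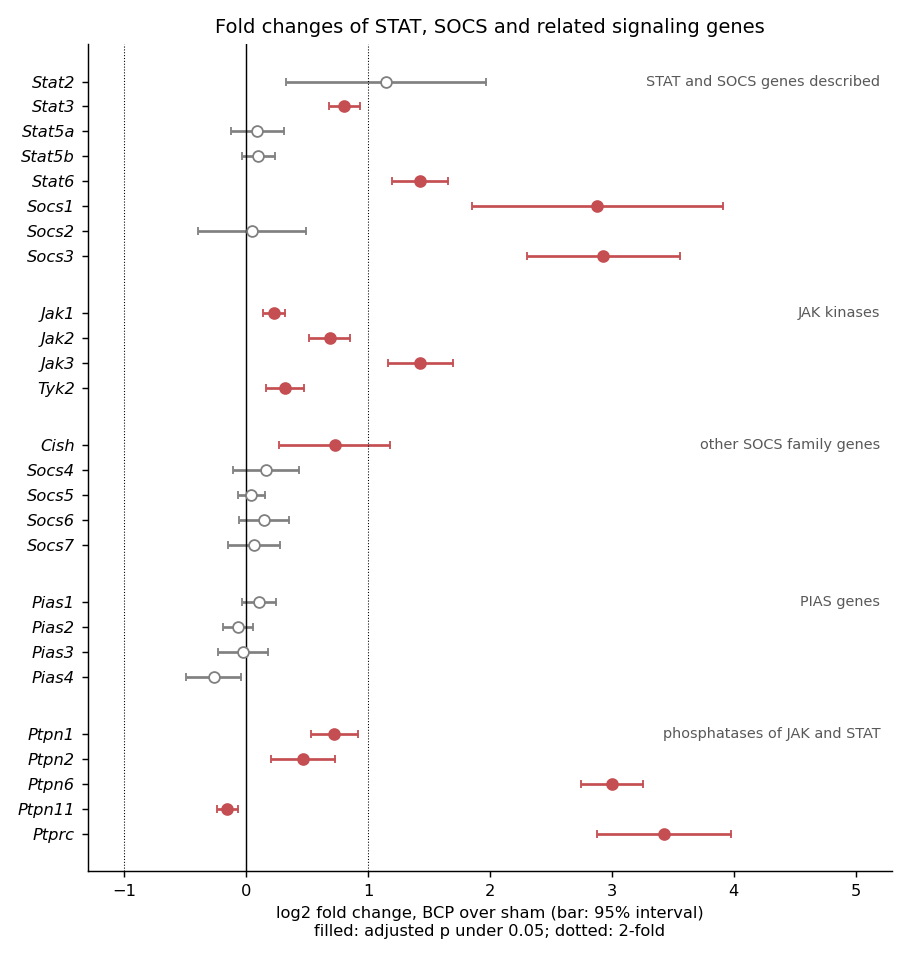
Log2 fold change of BCP over sham with its 95% interval for the 8 genes and for 4 lists of signaling genes; filled points passed an adjusted p of 0.05 and dotted lines mark 2-fold. Socs1 and Socs3 lie near 3 on the log2 scale, Stat5a, Stat5b and Socs2 near 0, and among the listed genes Ptpn6 and Ptprc lie furthest to the right.

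Levels of different genes were compared per length, on the deposited FPKM. In sham libraries Stat3 had 33.0 ± 2.43 FPKM, Stat2 24.8 ± 7.83 FPKM and Stat5b 17.1 ± 0.897 FPKM (SD, n = 3), and neighbors in this order overlapped. Below them came Stat5a at 5.56 ± 0.534 FPKM, Stat6 at 3.87 ± 0.309 FPKM and Socs2 at 3.02 ± 0.400 FPKM, and last Socs3 at 0.700 ± 0.224 FPKM and Socs1 at 0.253 ± 0.174 FPKM. None of these lower neighbors overlapped.

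In BCP libraries Stat3 had 59.3 ± 4.35 FPKM and Stat2 56.2 ± 8.06 FPKM, again overlapping, and Stat5b followed at 18.9 ± 0.420 FPKM. Stat6 at 10.7 ± 1.69 FPKM now stood above Stat5a at 6.09 ± 0.564 FPKM. Socs3 at 5.58 ± 0.578 FPKM overlapped Stat5a and stood above Socs2 at 3.20 ± 0.588 FPKM, with Socs1 last at 1.90 ± 0.783 FPKM. Socs1 was thus the least abundant of the 8 in both groups.

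**Figure D3:**
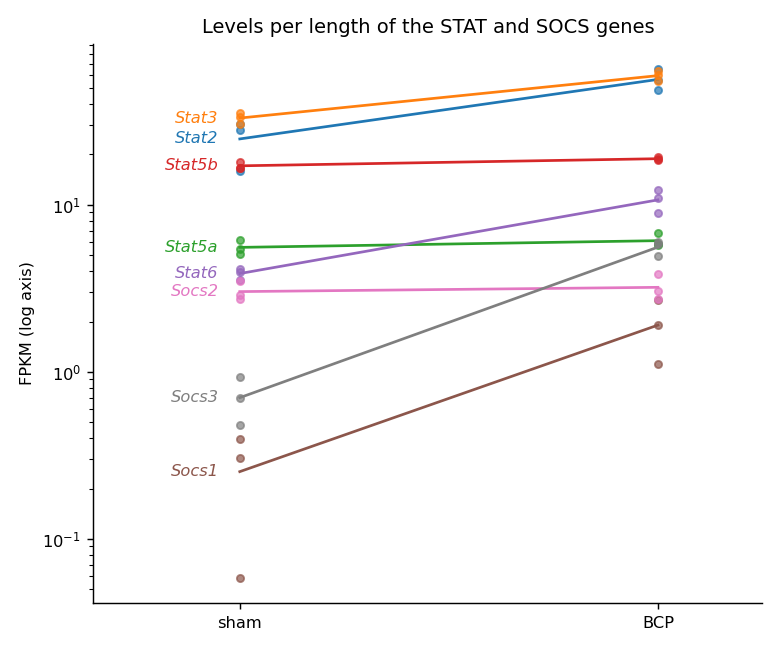
FPKM of the 8 genes on a log axis, with points for the 3 libraries of each group and lines between the group means. Stat6 crosses Stat5a and Socs3 crosses Socs2, while Stat3 and Stat2 stay on top and Socs1 at the bottom.

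Ratios within a library do not depend on its scaling. Stat3 over Stat5b in FPKM was 2.11, 1.85 and 1.84 in sham and 2.91, 3.29 and 3.22 in BCP libraries. The groups did not overlap (exact two-sided permutation test p = 0.1, the smallest that 3 against 3 allows). Stat6 over Stat5a was 0.674, 0.646 and 0.779 in sham and 1.32, 1.89 and 2.13 in BCP libraries, also without overlap (exact permutation p = 0.1). Stat5b over Stat5a was 3.10 ± 0.328 in sham and 3.11 ± 0.287 in BCP libraries (exact permutation p = 0.9). None of the ratios given here and in the next paragraph can pass 0.05 with 3 libraries a group.

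Socs3 over Stat3 was 0.0197, 0.0143 and 0.0305 in sham and 0.109, 0.0915 and 0.0826 in BCP libraries, so the inhibitor gained on the factor in each BCP library (exact permutation p = 0.1). Stat2 over Stat3 was 0.867, 0.834 and 0.521 in sham and 0.885, 1.02 and 0.935 in BCP libraries (exact permutation p = 0.1), and here sham libraries 1 and 2 lay close to BCP library 1. Of the summed FPKM of the 5 STAT rows, Stat3 took 39.4% ± 2.58 in sham and 39.2% ± 0.551 in BCP libraries. The share of Stat5b was 20.5% ± 2.50 in sham and 12.5% ± 0.992 in BCP libraries, while the sum itself was 92.7, 88.5 and 71.8 FPKM against 138, 164 and 152 FPKM.

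Stat5b, Stat5a and Stat3 lie in a row on chromosome 10. The gap between the spans of Stat5b and Stat5a was 9902 bases, and that between Stat5a and Stat3 was 1350 bases. Of these neighbors only Stat3 passed the test, and the difference between the neighbors is given by the ratios above. None of the 6 tested lncRNAs inside the spans of Stat5b and Stat3 passed an adjusted p of 0.05. The smallest adjusted p was that of NONRATT006033.2 inside Stat3, with 10, 14 and 10 counts in sham and 38, 57 and 18 in BCP libraries (log2 fold change 1.86, SE 0.44, adjusted p = 0.0887), which passed without BCP library 3 (2.20, adjusted p = 0.0436). It overlaps NONRATT006032.2 and NONRATT006034.2, whose log2 fold changes were 1.31 (SE 0.90) and 0.85 (SE 0.41), and reads could be split among these. NONRATT006035.2 in Stat3 had a log2 fold change of 0.73 (SE 0.42), NONRATT006030.2 in Stat5b 0.46 (SE 0.36) and NONRATT006031.2 in Stat5b 1.12 (SE 0.35). Whether reads of the lncRNAs inside Stat3 and Stat5b belong to the transcripts of those genes was not tested.

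**Figure D4:**
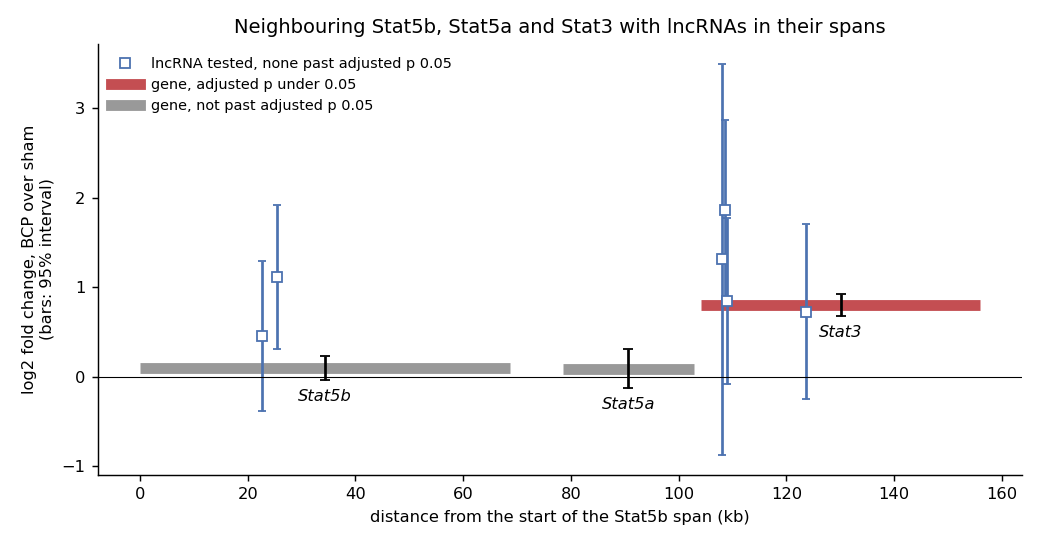
Log2 fold change of BCP over sham (vertical axis, 95% intervals as bars) against the distance from the start of the Stat5b span in kb; thick lines are gene spans and open squares tested lncRNAs. Stat5b and Stat5a lie near 0 and Stat3 at 0.80, and the lncRNAs have wide intervals.

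Over all 8 genes, 15 lncRNAs lay within 10 kb, 9 of them inside a span, and 8 were tested. By edgeR 2 of these rose and 0 fell (all 8 had a positive log2 fold change, and DESeq2 called 0 lower), beside 1.57% and 0.395% of 12157 lncRNAs. NONRATT025453.2 (7:2705232-2706508), inside the Stat2 span, had 95, 96 and 98 counts in sham and 166, 247 and 165 in BCP libraries. It rose by 1.14 on the log2 scale (SE 0.16, adjusted p = 0.0132). Whether its reads belong to the Stat2 transcript was not tested. The log2 fold change of this lncRNA is that of Stat2 to the second decimal, but its 3 sham libraries were alike. The adjusted p was 0.0697 without sham library 2 and 0.0589 without sham library 3.

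NONRATT006315.2 (10:106973849-106974402) lies 775 bases before the lower coordinate of Socs3. Socs3 is on the minus strand in the promoter windows above, so the lower coordinate is the end of the gene and not its start. Whether reads of this lncRNA belong to the Socs3 transcript was not tested. It had 6, 4 and 10 counts in sham and 24, 46 and 40 in BCP libraries, with no overlap. It rose by 2.58 on the log2 scale (SE 0.39, adjusted p = 0.0160), beside 2.93 for Socs3. Its adjusted p was 0.0661, 0.0697, 0.0704 and 0.0758 without sham library 1, sham library 2, BCP library 2 and BCP library 3.

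The 17 partner and target genes of STAT2, among them the antiviral effectors of the interferon response, were lowest in sham library 3, as Stat2 was, with 1 exception. By edgeR 0 of the 17 passed the adjusted p, 4 were higher at an unadjusted p under 0.05, and DESeq2 called 5 higher and 0 lower. Of all 14908 genes, 2922 were higher at an unadjusted p under 0.05, and DESeq2 called 2151 higher. All 17 had a positive log2 fold change, with a median of 1.04, beside 7116 positive of 14908 genes. In 11 of the 17 every BCP library lay above every sham library, which holds for 21.7% of all genes. Their summed CPM was 1958, 1611 and 623 in sham and 2654, 3907 and 2749 in BCP libraries. Sham library 3 was the lowest of the 6 libraries for 16 of the 17, against 19.1% of all genes, and its CPM was a median of 0.346 times the mean of the other sham libraries.

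Without sham library 3 the median log2 fold change of these genes was 0.68, and 3 passed in edgeR. These were Mx1 (1.92, adjusted p = 0.0448), an antiviral GTPase, Ifit3 (1.20, adjusted p = 0.0443), an RNA-sensing effector, and Oasl (0.96, adjusted p = 0.0284), of the oligoadenylate synthetase family. Irf9, which pairs with STAT2, had 823, 823 and 476 counts in sham and 623, 983 and 852 in BCP libraries, and the groups overlapped (log2 fold change 0.30, SE 0.30, adjusted p = 0.554). Ifit1 had 7, 482 and 20 counts in sham libraries, a spread unlike that of its relatives. Irf9, Oasl and Ifit1 were named after their values were seen. Why sham library 3 was low was not tested.

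**Figure D5:**
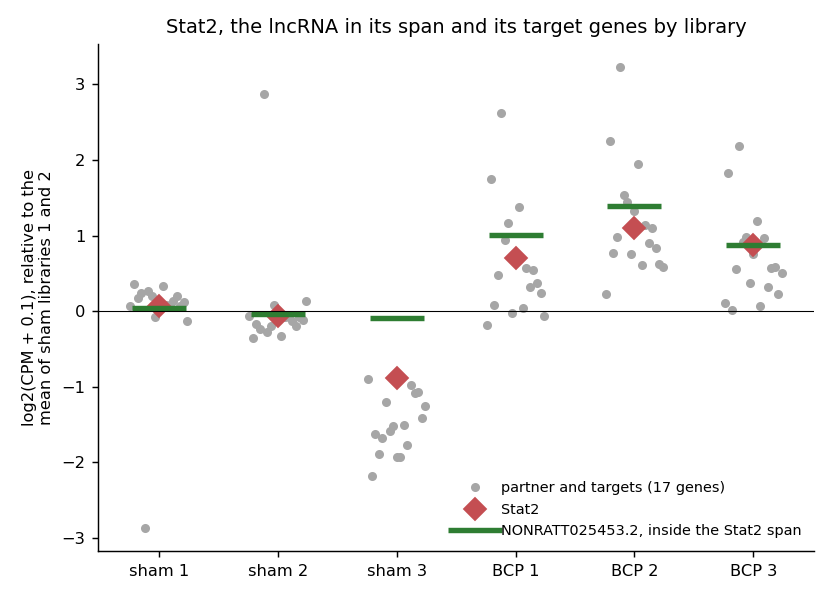
Log2 of CPM + 0.1 in each library relative to the mean of sham libraries 1 and 2, for Stat2 (red diamonds), its 17 partner and target genes (grey points) and the lncRNA inside its span (green bars). In sham library 3, Stat2 and the grey points lie below 0 and the lncRNA near it; the lone grey points far from 0 in sham libraries 1 and 2 are Ifit1.

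Target genes of the other STATs were counted from lists of textbook targets. Beside the counts of these lists and those that follow, 15.8% of all tested genes rose and 12.1% fell. Of 14 tested STAT3 targets, 10 rose and 1 fell, with a median log2 fold change of 1.74. Among those that rose, 2 reached the test through BCP libraries and are named for that reason. The count and the median include both. Batf had 1, 2 and 0 counts in sham and 16, 28 and 23 in BCP libraries. Bcl3 had 20, 13 and 8 in sham and 58, 105 and 75 in BCP libraries. Pim1, a survival kinase, had 66, 65 and 56 counts in sham and 247, 254 and 289 in BCP libraries (log2 fold change 2.19, SE 0.14, adjusted p = 5.83e-10). Myc, a growth factor-induced transcription factor, rose by 2.21 (SE 0.17) and Hif1a, the oxygen-regulated factor, by 0.58 (SE 0.05). Bcl2l1, an inhibitor of apoptosis, fell by 0.19 on the log2 scale (SE 0.05, adjusted p = 0.00954).

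Of 11 listed STAT6 targets, 10 had a row, 5 were tested and 2 rose. Retnla had no count in any library, and Ccl17, Ccl22, Ccl24 and Fcer2 had too few counts to be tested. Alox15, a lipoxygenase, had 15, 22 and 19 counts in sham and 33, 48 and 63 in BCP libraries (log2 fold change 1.47, SE 0.29, adjusted p = 0.000556). Clec10a, a macrophage lectin, had 3, 14 and 24 against 23, 43 and 32 counts, without overlap in CPM (1.37, SE 0.42, adjusted p = 0.0237). With few counts in sham library 1, Clec10a reached the test through BCP libraries. Arg1, an enzyme of alternatively activated macrophages, had 65, 74 and 100 counts in sham and 57, 71 and 71 in BCP libraries (log2 fold change -0.15, SE 0.19). Mrc1, the mannose receptor, was at 0.17 (SE 0.19) and Gata3, a T cell factor, at 0.80 (SE 0.52), neither past the test. The rise of Stat6 stood beside mixed values of its targets, and the number of them that rose was 1 without sham library 1, BCP library 2 or BCP library 3.

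STAT5 targets moved by less than 2-fold. Of 5 tested, 3 rose. These were Ccnd1 (log2 fold change 0.50, SE 0.09) and Ccnd2 (0.49, SE 0.10), cyclins of the G1 phase, and Bcl6 (0.24, SE 0.08), a repressor of lymphocyte genes. Bcl2, an inhibitor of apoptosis, was at -0.13 (SE 0.23) and Igf1, which growth hormone induces, at -0.20 (SE 0.21).

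Targets of STAT4, the factor of IL-12 signaling in lymphocytes, are given singly, since 3 of the 5 reached the test through BCP libraries. Tbx21, which directs type 1 T cells and natural killer cells, had 1, 0 and 0 counts in sham and 21, 40 and 53 in BCP libraries. Il18r1 had 0, 0 and 3 against 13, 26 and 18 counts, and Il18rap 3, 10 and 14 against 56, 67 and 101 counts, both chains of the IL-18 receptor. Hlx, a homeobox factor, rose by 1.56 (SE 0.28) and Furin, a protease made by many cell types, by 0.29 (SE 0.06). The summed levels of T cell and cytotoxic cell genes were higher in the same libraries (values above). Of the 5 targets, Hlx and Furin had at least 10 counts in every library.

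The JAK kinases rose in 4 of 4, by unequal amounts. Jak3, which pairs with the common gamma chain of lymphoid cells, had 113, 140 and 114 counts in sham and 234, 355 and 330 in BCP libraries, a log2 fold change of 1.43 (SE 0.13, adjusted p = 4.67e-08). Jak2 rose by 0.69 (SE 0.08), Tyk2 by 0.32 (SE 0.08) and Jak1 by 0.23 (SE 0.04).

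Of the other SOCS family genes, 1 of 5 rose (20%, beside 15.8% of all genes). Cish, which STAT5 induces, had 41, 38 and 49 counts in sham and 70, 60 and 65 in BCP libraries (log2 fold change 0.73, SE 0.22, adjusted p = 0.0159), and did not pass without sham library 2 or BCP library 1. Socs4 (0.16), Socs5 (0.04), Socs6 (0.15) and Socs7 (0.07) did not pass.

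PIAS genes encode ligases that bind STATs in the nucleus. By edgeR 0 of 4 passed, 1 was lower at an unadjusted p under 0.05, and DESeq2 called 0. Log2 fold changes were 0.11 for Pias1, -0.07 for Pias2, -0.02 for Pias3 and -0.27 for Pias4 (adjusted p = 0.0747).

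Phosphatases that act on JAKs and STATs rose in 4 of 5. Ptpn6, the phosphatase of blood cells, had 127, 143 and 118 counts in sham and 736, 1056 and 1098 in BCP libraries (log2 fold change 3.0, SE 0.12, adjusted p = 3.26e-11). Ptprc, the pan-leukocyte marker CD45, rose by 3.42 (SE 0.21). The broadly expressed Ptpn1 rose by 0.72 (SE 0.09) and Ptpn2 by 0.47 (SE 0.13), and Ptpn11, which also transmits growth factor signals, fell by 0.15 on the log2 scale (SE 0.04, adjusted p = 0.00837).

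Among receptors, those of the common gamma chain and of IL-4 and IL-13 rose in 8 of 8 tested, and in 5 of 5 of those with at least 10 counts in every library. Il21r had 9, 15 and 12 counts in sham and 122, 182 and 179 in BCP libraries (3.84, SE 0.23). Il2rg, the common gamma chain itself, rose by 3.47 (SE 0.22) and Il2rb by 3.46 (SE 0.30). With fewer than 10 counts in some sham libraries, Il21r and Il2rb reached the test through BCP libraries. Interferon and IL-10 family receptors rose in 6 of 7, and the smallest p-values were those of Il10ra (2.78, SE 0.13), Ifngr2 (0.96, SE 0.08) and Il10rb (0.96, SE 0.13). The IL-12 receptor chain Il12rb1 had 2, 1 and 0 counts in sham and 13, 33 and 27 in BCP libraries, and Il12rb2 had 0, 3 and 2 against 26, 20 and 19 counts. Both reached the test through BCP libraries, and Il23r was not tested.

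Receptors of the gp130 family, which signal mainly through STAT3, had a median of 0.13. Of 8 tested, 3 rose, namely Csf3r (1.66, SE 0.12), Osmr (0.89, SE 0.20) and Il6r (0.49, SE 0.13). The CNTF receptor Cntfr fell by 0.24 and the IL-11 receptor Il11ra1 by 0.28 on the log2 scale (adjusted p = 0.0197 and 0.0397), and neither passed with library sizes alone. Of 5 tested common beta chain and homodimeric receptors, Csf2rb (3.47, SE 0.36) and Csf2ra (2.73, SE 0.20), of GM-CSF, rose. Il3ra (0.26), the growth hormone receptor Ghr (-0.03) and the prolactin receptor Prlr (-0.33) did not pass.

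Of 27 listed cytokine ligands only 7 had enough counts to be tested. No library held a count of Il2, Il4, Il13, Lep, Prl, Gh1 or Epo. Ifng, the interferon of T and natural killer cells, had no count in any sham library and 18, 25 and 18 in BCP libraries. Osm rose from 10, 6 and 5 counts to 22, 20 and 22 and Ebi3, a chain of IL-27, from 6, 11 and 14 to 16, 23 and 24, although Ebi3 did not pass with DESeq2 or without sham library 1, sham library 2, BCP library 2 or BCP library 3. Each of Ifng, Osm and Ebi3 reached the test through BCP libraries. Cntf (-0.07), Il12a (-0.42) and Il23a (-0.23) did not pass.

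Over all these lists, each gene once, 53 of 101 tested rose (52.5%) and 5 fell (4.95%), with a median log2 fold change of 0.80. Of those with at least 10 counts in every library, 39 of 84 rose. In the Jak-STAT term of the deposited KEGG annotation, chosen after the values were seen, 42 of 95 tested genes rose and 7 fell, with a median of 0.19.

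Profiles over the 6 libraries were compared as centered log2 CPM. The genes with the smallest root mean square difference from Stat6 were Cebpa (0.0620), Spint2 (0.0645) and Cx3cr1 (0.0720), the last a chemokine receptor of microglia. Those nearest to Socs3 were Themis2 (0.216), Tlr9 (0.237) and Cd226 (0.241), and those nearest to Socs1 were Bub1b (0.179), Birc5 (0.184) and MGC105567 (0.190). The distances of Socs1 and Socs3 were larger than those of Stat6, and their counts were lower.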

How the data were processed

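Per the labels and methods, the authors ran Seqtk on the reads, HISAT2 2.0.4 against the Rnor_6.0 genome and StringTie 1.3.0 for expression (names and versions from the submitters' processing notes and the methods). They deposited raw counts of genes and lncRNA transcripts and, beside them, FPKM values. The counter and its use of strand are not given in the sources used here. Libraries were grouped by their labels (3 sham, 3 BCP). Genes and lncRNAs were fitted separately with edgeR 4.0.16 in R 4.3.3, using filterByExpr, TMM and the robust quasi-likelihood test on condition, with Benjamini-Hochberg adjustment over all rows tested. Thresholds were an adjusted p of 0.05 and, for calls, a log2 fold change beyond 1. "Rose" and "fell" mean past the adjusted p. SE is the log2 fold change divided by the square root of F. Rows without a gene symbol (48, holding 0.0756% of counts) carried a gene identifier and were kept. The biological coefficient of variation was 7.72% for genes and 33.4% for lncRNAs. Chi-square per degree of freedom between libraries of a group was 3.48 to 6.04, so none was a duplicate.

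The genes and lists were chosen with earlier results of these data known. Named were all genes followed, all genes of lists with up to 5 tested, in longer lists the 3 with the smallest p in each direction past the test and any gene without sham counts and at least 10 in each BCP library, marker genes at 0, tested lncRNAs within 10 kb, and the 3 nearest profiles (mean log2 CPM at least 0). A gene that this rule selects is not reported here. Alternatives were DESeq2 1.42.0, other scaling, other filters, the replicate number as a block, each library left out, a test against 2-fold, Stat5a and Stat5b counts added, and 50 kb. The code was tested on simulated data. Figures used matplotlib 3.10.9 in Python 3.11.15.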

Additional observations from a re-analysis of the deposited data

How the results depend on the processing

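Stat3, Stat6, Socs1 and Socs3 kept their direction and stayed past the adjusted p in every alternative test for a difference that included them. The test against 2-fold asks a stricter question, and Stat3, at 1.75-fold, lies below its threshold. When each library was left out, 4 or 5 of the 8 genes passed. With at least 10 counts in every library, Socs1 and Socs3 were not tested, which left 2 past the adjusted p and 1 also past 2-fold. The pathway genes that fell numbered 5, and 3 with library size only, with a range of 3 to 5 when libraries were left out. The lncRNAs near these genes that rose numbered 2, with a range of 0 to 2 when libraries were left out. With the replicate number as a block they numbered 0, while 4 of the 8 genes still passed, and over all genes 2217 rose and 1597 fell against 2352 and 1805 without it. Deviations of same-numbered libraries correlated at -0.105, 0.0439 and -0.0353, and those of differently numbered libraries at -0.119 to 0.139. These values show no pairing by number, but with so few libraries they cannot exclude one. Log2 fold changes near 0 changed sign. With library size only, Pias3 was at 0.016 and Ghr at 0.0085. With each library left out, Socs2 ranged from -0.11 to 0.16 (negative without sham library 3 and without BCP library 3), Socs7 from -0.021 to 0.12, Pias3 from -0.081 to 0.052, Ghr from -0.083 to 0.013, Bcl2 from -0.36 to 0.042, Mrc1 from -0.0069 to 0.43 and Arg1 from -0.23 to 0.0077. DESeq2 passed 5 of the 8 genes, Stat2 in addition. A test against 2-fold called 548 genes higher and 0 lower. The depth limits Socs1 most, with at most 6 counts in a sham library. The intervals printed for fold changes rest on the SE of the quasi-likelihood fit, so they include the spread between libraries and not counting error alone. The cause of the differences between alternatives was not tested.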
